A study of Mus musculus with 6 samples.

Results

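The organic ion transporters of 3 gene families were compared between whole kidneys of mice with an active Notch1 domain in the tubule and kidneys of their control littermates. The families are Slc22 (organic anion, cation and carnitine transporters), Slco (organic anion transporting polypeptides, OATP) and Slc47 (multidrug and toxin extrusion proteins, MATE). Members were chosen by gene symbol, and each gene was to be represented by the probe set selected on the highest mean over the 6 arrays among those with a single gene symbol. Every member had 1 such probe set, so the measured means decided nothing. This gave 40 members among the 19937 genes measured, 23 of them Slc22, 15 Slco and 2 Slc47. Slc22a3 was not analysed here, and Slc22a28 was measured only on a probe set that it shares with Slc22a29 and Slc22a30.

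The NICD1 mice carried Pax8rtTA and TREICNotch1. In this pair of transgenes, a Pax8-driven transactivator that responds to an inducer switches on the intracellular part of Notch1, which signals without a ligand, in epithelial cells of the kidney tubule. The 3 control samples came from wild-type littermates, which are not described as carrying either transgene or as receiving an inducer, so effects of the transactivator, of an inducer and of Notch1 cannot be told apart. The inducer, its duration, and the age and sex of the animals are not given in the sources used here. The 3 NICD1 and 3 control samples were total RNA of whole kidney, each on its own Affymetrix array. Nothing in the labels says more about the separation of the samples within a group, so the p-values measure the spread between these samples.

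Organic ion transporters move drugs, toxins, hormones, urate, carnitine and products of metabolism across cell membranes. In the proximal tubule, Slc22 anion and cation transporters of the blood-facing membrane take such compounds up from blood, and MATE and ATP-driven exporters of the brush border release them into the urine. The anion exchangers of the blood-facing membrane are driven by an outward gradient of alpha-ketoglutarate, which sodium-coupled dicarboxylate uptake and mitochondria supply. Many of these genes depend on the nuclear receptor HNF4A, and several are expressed more in male than in female mouse kidneys.

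All levels are log2 RMA expression values, a scale on which background is subtracted and arrays are brought to a common distribution, and all differences are NICD1 minus control on that scale. Differences were called at an adjusted p under 0.05 from limma over all genes, and SD are over n = 3 arrays. Levels of different genes are not compared, since probe sets differ in brightness. The number of arrays, 3 in each group, limits the precision. No detection calls were used, so a floor line was set at 4.11, the 95th percentile of the mean levels of 1194 olfactory and vomeronasal receptor genes, which kidney is not expected to express at any height. A difference that ends under that line is understated. Median levels per array were 4.93 to 4.99 in controls and 5.03 to 5.11 in NICD1 kidneys. These medians, which centring subtracts, are over the 28187 probe sets in the number range of the annotation and not over the whole array. As a check of the labels, Notch1 stood at 6.65, 6.59 and 6.45 in controls and at 10.29, 10.30 and 9.99 in NICD1 kidneys.

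Of the 40 members, 20 fell, 1 rose and 19 were not called. Over all genes, 14.9% were called lower and 17.8% higher. Among the members that fell, 18 did so by at least 1 log2, while 0 members rose by that much. Over all genes, 5.3% were called lower and 4.65% higher by at least 1 log2. The median difference was -0.61 over the members and 0.015 over all genes. In 26 members every NICD1 array lay below every control array, which held for 19.7% of all genes. When each array was centred, the all-gene median became -0.09 and the higher share of all calls went from 54.4% to 41.4%. With centring, 24 members were called lower, and the lower calls over all genes went from 2978 to 3710. Under the uncentred values, 10 members lay under the floor line in both groups and 0 of these were called.

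**Figure D1:**
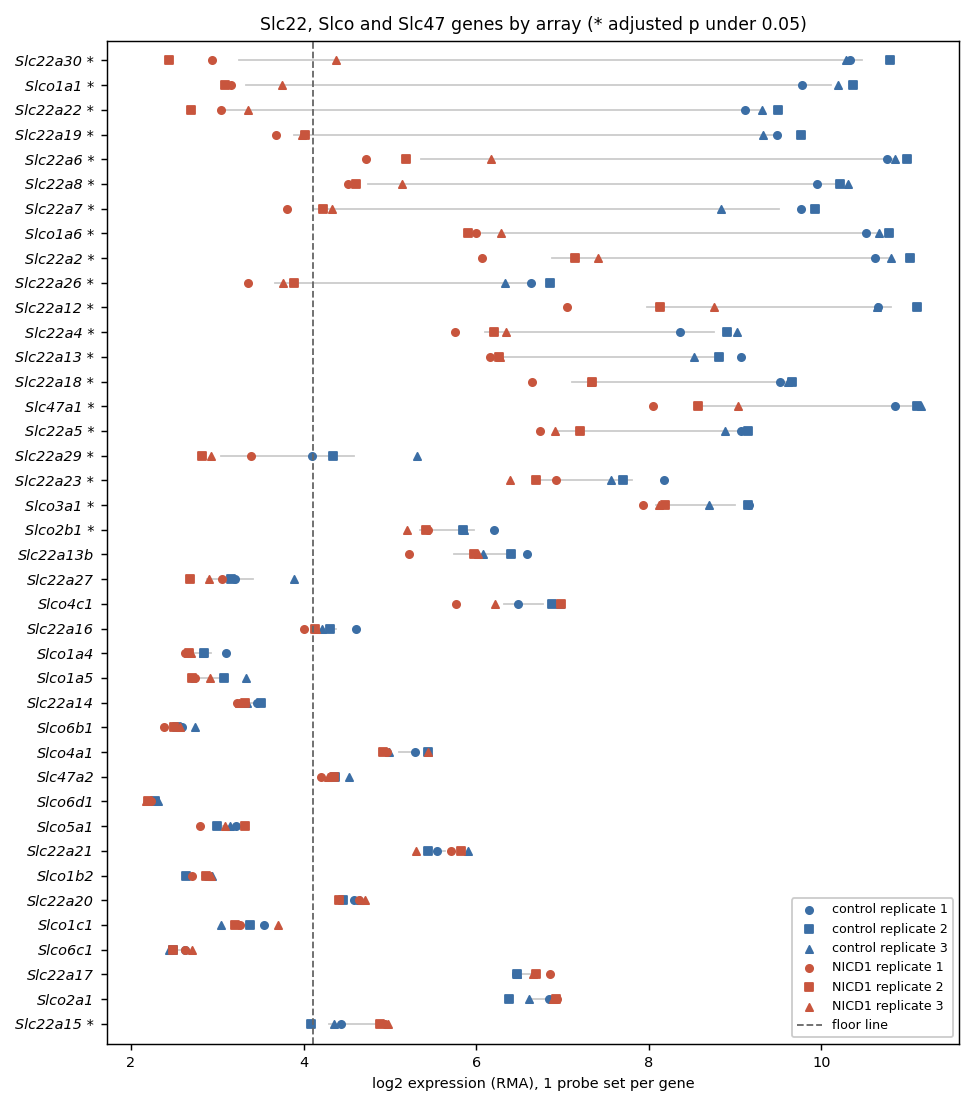
Log2 expression of each of the 40 members on the 6 arrays, with blue points for controls, red points for NICD1 kidneys, a symbol shape for each replicate number, a grey line joining the group means and a dashed floor line at 4.11. Genes are ordered by the difference, and a star marks the 21 called genes. The members at the top, such as Slc22a30 and Slco1a1, go from above 9 in controls to below 4.5 in NICD1 kidneys, while 10 members lie left of the line in both groups.

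The organic anion exchangers held most of the large falls. Of 12 measured, 10 fell, 0 rose and 2 were not called, with a median difference of -4.17. Slc22a6, which encodes OAT1, the p-aminohippurate exchanger of the blood-facing membrane, stood at 10.76, 11.00 and 10.86 in control replicates 1 to 3 and at 4.72, 5.18 and 6.17 in NICD1 replicates 1 to 3. The groups were far apart, and the NICD1 arrays differed from each other by more than the control arrays did. The difference was -5.51 (SE 0.30, adjusted p = 2.14e-06), which leaves 2.19% of the control level. Slc22a8, encoding OAT3, a blood-facing exchanger of overlapping substrates, stood at 9.95, 10.22 and 10.31 in controls and at 4.51, 4.61 and 5.14 in NICD1 kidneys. It fell 42.5-fold (-5.41, SE 0.17, adjusted p = 1.52e-07), and as with Slc22a6 its highest NICD1 value was in replicate 3. Slc22a7, encoding OAT2, was measured at 9.76, 9.92 and 8.83 in controls and at 3.80, 4.22 and 4.33 in NICD1 kidneys. Control replicate 3 was the lowest of its group by about 1 log2, yet lay well above all NICD1 arrays (difference -5.39, SE 0.26, adjusted p = 1.32e-06).

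Exchangers of the brush border and of urate, nicotinate and prostaglandins fell too. Slc22a12, encoding URAT1, through which urate is reabsorbed from the tubule fluid, stood at 10.66, 11.11 and 10.65 in controls and at 7.05, 8.13 and 8.75 in NICD1 kidneys. Its NICD1 values stayed well above the floor line and spread over more than 1.5 log2, and the difference was -2.83 (SE 0.36, adjusted p = 0.00025). Slc22a13, encoding OAT10, a carrier of nicotinate and urate, was even among the NICD1 arrays at 6.17, 6.27 and 6.27, against 9.07, 8.81 and 8.52 in controls (-2.57, SE 0.14, adjusted p = 2.23e-06). For Slc22a19, which encodes OAT5, the control values were 9.48, 9.77 and 9.32 and the NICD1 values 3.67, 4.02 and 3.99, all of them under the floor line. The fall was 49.5-fold (-5.63, SE 0.14, adjusted p = 1.06e-07) and is a lower estimate for that reason. Slc22a22, which encodes a prostaglandin-specific organic anion transporter, went from 9.11, 9.50 and 9.31 to 3.04, 2.70 and 3.36 (-6.28, SE 0.17, adjusted p = 1.09e-07), again with every NICD1 array under the line.

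The rodent-specific exchangers Slc22a30, Slc22a29 and Slc22a26 fell. Slc22a30 stood at 10.33, 10.79 and 10.28 in controls and at 2.94, 2.44 and 4.38 in NICD1 kidneys. Replicate 3 of NICD1 was the one array above the floor line, and the mean fell by 7.22 on the log2 scale (SE 0.41, adjusted p = 2.70e-06). A probe set annotated to Slc22a28, Slc22a30 and Slc22a29 together gave 10.31, 10.57 and 10.08 in controls and 3.63, 2.62 and 3.88 in NICD1 kidneys, a difference of -6.94 (SE 0.30, adjusted p = 1.93e-06 in the limma fit over 28187 probe sets). Those values cannot be assigned to one of the 3 genes, and near-identical paralogs may share signal on the single-gene probe sets as well. Slc22a29 on its own probe set stood at 4.10, 4.34 and 5.31 in controls and at 3.39, 2.82 and 2.92 in NICD1 kidneys (-1.54, SE 0.29, adjusted p = 0.00251). Slc22a26 went from 6.64, 6.85 and 6.33 to 3.35, 3.89 and 3.76 (-2.94, SE 0.17, adjusted p = 3.13e-06). Every NICD1 value of Slc22a29 and Slc22a26 lay under the floor line, as did control replicate 1 of Slc22a29. The sizes of these falls are therefore not firm. The other 2 exchangers were not called. Slc22a27 lay under the floor line in both groups (3.42 ± 0.41 and 2.88 ± 0.18, adjusted p = 0.0629), and Slc22a20, encoding the OAT6 of olfactory mucosa, at 4.57 ± 0.10 and 4.58 ± 0.16 (adjusted p = 0.934). Slc22a27 passed as lower with centring (-0.64) and without control replicate 2 (-0.66), and its difference was -0.30 (adjusted p = 0.167) without control replicate 3.

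Transcripts of cation transporters of both membranes fell. Slc22a2, encoding OCT2, the uptake transporter for organic cations on the blood-facing side, stood at 10.62, 11.03 and 10.81 in controls and at 6.06, 7.15 and 7.41 in NICD1 kidneys. All 3 NICD1 arrays were above the floor line, and the 15.4-fold fall (-3.95, SE 0.30, adjusted p = 1.11e-05) is therefore measured on both sides. Slc47a1 encodes MATE1, the proton-coupled exporter that passes organic cations into urine. It stood at 10.85, 11.11 and 11.15 in controls and at 8.05, 8.57 and 9.04 in NICD1 kidneys, a 5.61-fold fall (-2.49, SE 0.22, adjusted p = 2.62e-05). Its neighbour Slc47a2 was just above the floor line in both groups, at 4.40 ± 0.11 and 4.28 ± 0.08 (adjusted p = 0.465).

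**Figure D2:**
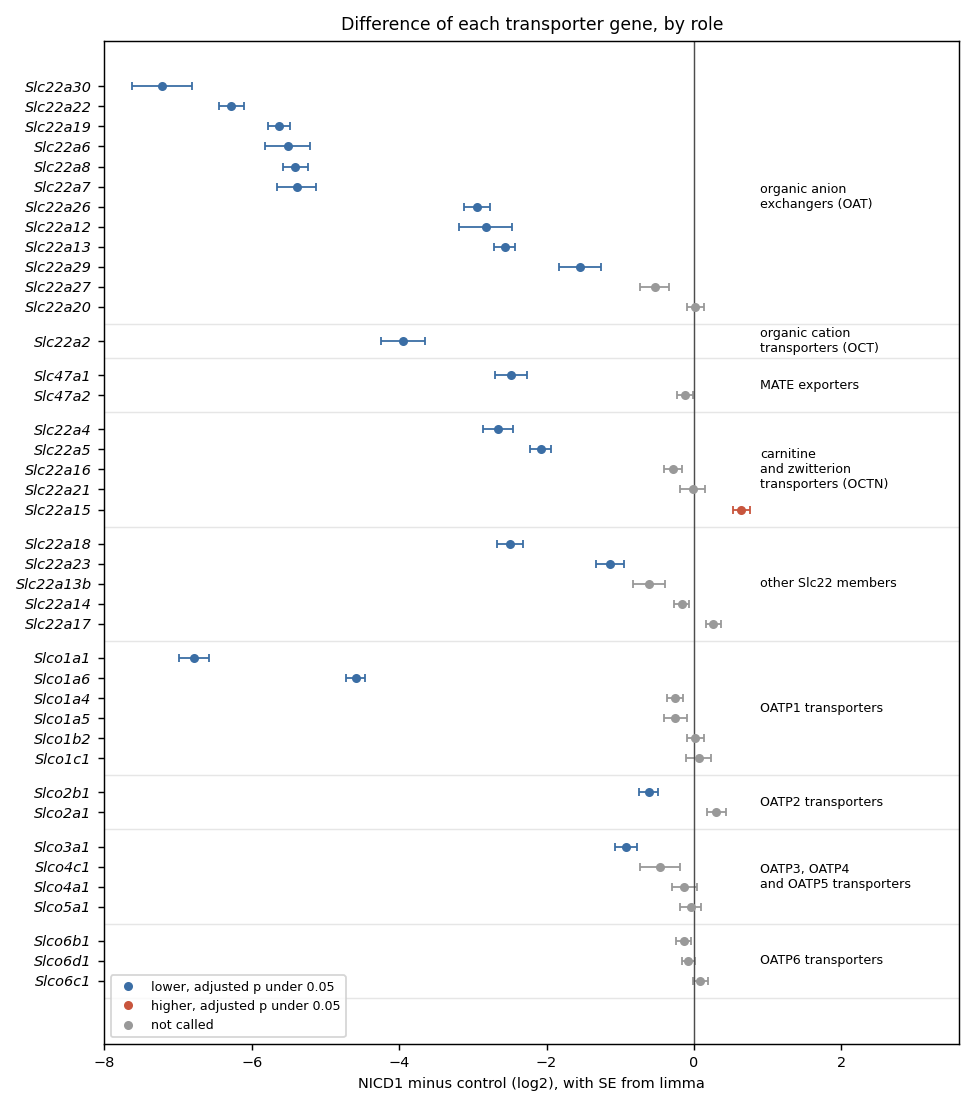
Difference of each member, NICD1 minus control in log2 with its standard error from limma, grouped by transporter role. Blue points were called lower, the red point (Slc22a15) higher, and grey points were not called. The organic anion exchangers reach down to -7.22, whereas the 3 OATP6 genes lie between -0.14 and 0.09.

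Of the carnitine and zwitterion transporters, 2 fell, 1 rose and 2 were not called. Slc22a5, which encodes OCTN2, the carnitine carrier that recovers carnitine from urine, was measured at 9.07, 9.15 and 8.89 in controls and at 6.74, 7.20 and 6.92 in NICD1 kidneys (-2.08, SE 0.14, adjusted p = 5.35e-06). Slc22a4, encoding the ergothioneine carrier OCTN1, stood at 8.36, 8.90 and 9.02 against 5.76, 6.21 and 6.35 (-2.66, SE 0.20, adjusted p = 1.10e-05). Between these genes on the chromosome lies Slc22a21, encoding OCTN3, whose groups overlapped at 5.64 ± 0.24 and 5.62 ± 0.27 (adjusted p = 0.954). Slc22a15 was the member that rose, from 4.44, 4.09 and 4.36 to 4.94, 4.88 and 4.98 (0.64, SE 0.12, adjusted p = 0.00219). Its groups did not overlap, but all 6 values were within 1 log2 of the floor line. Slc22a16, a carnitine carrier of the testis, differed by -0.28 (adjusted p = 0.119), with a NICD1 mean of 4.09, under the floor line. It passed as lower after quantile normalization (-0.34) and centring (-0.39), and was -0.17 without control replicate 1.

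Among the Slc22 genes with other or unsettled roles, Slc22a18, an imprinted gene, went from 9.52, 9.67 and 9.62 to 6.64, 7.35 and 7.33 (-2.50, SE 0.18, adjusted p = 8.49e-06). Slc22a23, an orphan transporter, went from 8.18, 7.70 and 7.56 to 6.93, 6.69 and 6.39 (-1.14, SE 0.18, adjusted p = 0.00114). Both groups of each gene were above the floor line and did not overlap. Slc22a17, which encodes a cell-surface receptor for the iron-carrier protein lipocalin-2, was the tightest of these genes among controls. Its control values were 6.46, 6.48 and 6.47 and its NICD1 values 6.86, 6.69 and 6.65, a difference of 0.26 that did not pass (SE 0.10, adjusted p = 0.0744) although the groups did not overlap. Slc22a13b, which the annotation ties to a non-coding RefSeq transcript, lay at 6.35 ± 0.26 and 5.74 ± 0.45 (adjusted p = 0.0583). It passed as lower with centring (-0.72), after quantile normalization (-0.69), without the dimmest 40% of genes (-0.61), and without control replicate 3 (-0.75) or NICD1 replicate 3 (-0.75). Without NICD1 replicate 1 its difference was -0.35 (adjusted p = 0.126). Slc22a14, a gene of sperm, was under the floor line in both groups (adjusted p = 0.25).

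The Slco genes split within a single subfamily. Of 6 measured OATP1 genes, 2 fell and 4 were not called, the latter all under the floor line in both groups. Slco1a1, a male-biased brush border carrier of steroid conjugates, stood at 9.78, 10.37 and 10.20 in controls and at 3.16, 3.09 and 3.75 in NICD1 kidneys. All NICD1 values were under the floor line, so the 110-fold fall (-6.79, SE 0.20, adjusted p = 1.26e-07) is understated. Slco1a6, a kidney-enriched gene, went from 10.52, 10.78 and 10.67 to 6.00, 5.91 and 6.29, a 24.1-fold fall with both groups above the line (-4.59, SE 0.13, adjusted p = 1.14e-07). The members not called were Slco1a4 and Slco1c1 of the blood-brain barrier, Slco1b2 of the liver, and Slco1a5, with differences between -0.26 and 0.06 and adjusted p-values from 0.108 to 0.945. Slco1a4 passed as lower with centring (-0.36) and was -0.17 without control replicate 1. Slco1a5 passed without control replicate 1 (-0.42) and was -0.11 without control replicate 3.

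Smaller shifts were measured in the more widely expressed OATP genes. Slco3a1, a prostaglandin and thyroxine carrier, fell from 9.16, 9.15 and 8.70 to 7.94, 8.18 and 8.12 (-0.92, SE 0.14, adjusted p = 0.00089). Slco2b1, which carries steroid sulfates and many drugs, fell from 6.20, 5.84 and 5.86 to 5.44, 5.42 and 5.20 (-0.62, SE 0.13, adjusted p = 0.00501). Slco2a1, encoding the prostaglandin transporter, had control values of 6.85, 6.38 and 6.62 and NICD1 values of 6.94, 6.92 and 6.89. Its difference of 0.30 did not pass (adjusted p = 0.109), and it was 0.42 without control replicate 1, which passed as higher, and 0.18 (adjusted p = 0.369) without control replicate 2. Slco4c1, the digoxin and thyroid hormone carrier of the proximal tubule, was the uneven member. It stood at 6.48, 6.88 and 6.97 in controls and at 5.76, 6.98 and 6.22 in NICD1 kidneys, so that NICD1 replicate 2 was as high as the highest control. The difference of -0.46 did not pass (SE 0.27, adjusted p = 0.262), and single arrays moved it both ways. It was -0.79 (adjusted p = 0.0148) without NICD1 replicate 2 and -0.18 (adjusted p = 0.645) without NICD1 replicate 1. Slco4a1 (5.24 ± 0.23 and 5.11 ± 0.29) and Slco5a1 (3.12 ± 0.12 and 3.07 ± 0.26) were not called, nor were the testis genes. Slco6b1 stood at 2.59, 2.54 and 2.75 in controls and at 2.38, 2.50 and 2.57 in NICD1 kidneys (-0.14, SE 0.11, adjusted p = 0.391), with groups that overlapped under the floor line. Slco6c1 and Slco6d1 were under it too (adjusted p = 0.62 and 0.621).

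Members that lie next to each other on a chromosome did not all differ alike. In the gene order of mouse assembly GRCm38.p6, Slc22a19, Slc22a26, Slc22a27, Slc22a28, Slc22a29, Slc22a30, Slc22a8 and Slc22a6 follow each other with no other protein-coding gene between them. Of the 7 with a probe set of their own, 6 fell and Slc22a27 was not called. The other long run, Slco1c1, Slco1b2, Slco1a4, Slco1a1, Slco1a6 and Slco1a5, with 2 other genes in it, held 2 genes that fell and 4 under the floor line. Shorter runs were Slc22a5 to Slc22a4, where the outer genes fell, and the pairs Slc47a2 with Slc47a1 and Slc22a14 with Slc22a13, in each of which the second gene fell. No test compared neighbours with each other.

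**Figure D3:**
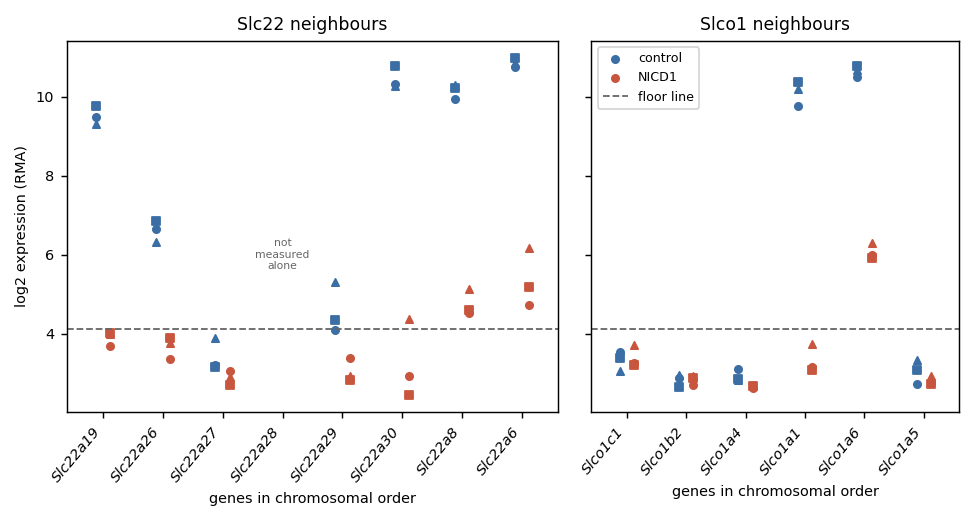
Log2 expression on the 6 arrays for the members of the longest Slc22 and Slco1 runs, in chromosomal order at equal spacing, with controls in blue, NICD1 in red, a symbol shape per replicate number and the floor line dashed. Slc22a27, Slco1c1, Slco1b2, Slco1a4 and Slco1a5 lie under the line in both groups, while Slco1a1 and Slco1a6 start above 9 and fall.

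Upstream sequence was read for letters of RBPJ, the DNA-binding partner of the Notch1 intracellular part, and of HNF4A, a regulator of proximal tubule transporters. RefSeq windows of 300 bases, 250 before and 50 after an annotated start in GRCm38.p6, were held for 34 members, 17 of them genes that fell. The RBPJ letters TGGGAA were found on either strand in 6 of 20 windows (30.0%) of the genes that fell and in 5 of 19 windows (26.3%) of the others, against 25.6% of all 32851 windows. The HNF4 letters AAAGTCCA on either strand were found in 1 of 20 windows (Slc22a22) and 0 of 19, against 1.25% of windows, and in none of either with a C before them (0.475% of windows). A match describes letters and not binding. The neighbours Slc22a29 and Slc22a30, whose aligned windows were 74.7% identical, hold the RBPJ letters in the same surroundings. Stretches of 90 bases before the start are shown 5′ to 3′ on the gene's strand for genes that fell and hold these letters there. Capitals mark the RBPJ letters, which read TTCCCA on the opposite strand.
Slc22a30 (chr19:8405149-8405238, minus strand): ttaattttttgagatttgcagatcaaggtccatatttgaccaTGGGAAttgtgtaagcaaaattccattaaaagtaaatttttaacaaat
Slc22a29 (chr19:8218920-8219009, minus strand): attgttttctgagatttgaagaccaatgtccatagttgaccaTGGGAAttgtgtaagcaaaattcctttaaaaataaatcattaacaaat
Slc22a6 (chr19:8617746-8617835, plus strand): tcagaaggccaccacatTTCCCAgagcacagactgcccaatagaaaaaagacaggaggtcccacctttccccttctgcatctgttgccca
Slco1a1 (chr6:141947092-141947181, minus strand): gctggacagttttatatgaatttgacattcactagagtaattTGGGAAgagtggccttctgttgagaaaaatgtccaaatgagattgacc
Slco2b1 (chr7:99695836-99695925, minus strand): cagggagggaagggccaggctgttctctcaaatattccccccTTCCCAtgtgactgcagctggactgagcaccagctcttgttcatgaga

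The stretch of Slc22a22 is shown for its HNF4 letters, in capitals. Those of Slc22a17 and Slco1a5, members that were not called, show the RBPJ letters in capitals for contrast.
Slc22a22 (chr15:57265193-57265282, minus strand): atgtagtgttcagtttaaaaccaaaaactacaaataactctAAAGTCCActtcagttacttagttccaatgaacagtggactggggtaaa
Slc22a17 (chr14:54913133-54913222, minus strand): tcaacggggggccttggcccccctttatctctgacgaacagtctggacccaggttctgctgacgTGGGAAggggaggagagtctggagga
Slco1a5 (chr6:142322997-142323086, minus strand): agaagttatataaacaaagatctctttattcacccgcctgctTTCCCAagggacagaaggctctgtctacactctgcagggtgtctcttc

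Genes tied to the gradient for anion exchange, by carriage, sodium transport or the metabolism of alpha-ketoglutarate, were mostly lower as well. Of 9 measured, 8 fell, 0 rose and 1 was not called. Slc13a3, the sodium-coupled dicarboxylate carrier that brings alpha-ketoglutarate into the cell from blood, stood at 10.85, 11.03 and 10.74 in controls and at 5.30, 6.17 and 6.77 in NICD1 kidneys (-4.79, adjusted p = 4.28e-06). Also called were Slc9a3, a sodium-proton exchanger (-3.26), Fxyd2, a regulator of the sodium pump (-1.94), and Sucla2 of the citric acid cycle (-1.50). The citric acid cycle genes listed, Ogdh, Sucla2 and Suclg1, use alpha-ketoglutarate or act after it, so they do not supply it. The sodium pump subunit Atp1b1 differed by -0.24 (adjusted p = 0.147).

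Efflux and urate carriers, not all of them of the brush border, moved in both directions. Of 12 measured, 5 fell, 5 rose and 2 were not called. The brush border anion carriers Slc17a3 (-4.81) and Slc17a1 (-3.11) fell, as did the exporters Abcg2 (-2.11) and Abcc2 (-1.35). The exporters that rose were Abcb1b (1.37), Abcc3 (1.21), Abcc1 (1.12) and Abcc4 (0.90), and the urate carrier Slc2a9 rose by 1.30. The groups of Abcb1b overlapped, and its call was lost with a trended variance (adjusted p = 0.0799) and without control replicate 1, NICD1 replicate 2 or NICD1 replicate 3. Slc22a12, Slc22a13, Slc17a3 and Abcg2, which handle urate, thus fell while Slc2a9, which handles it too, rose. These are examples and not a full tally of urate carriers.

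Among scaffolds and transcriptional regulators, 7 of 12 fell, 1 rose and 4 were not called. Pdzk1, the scaffold that holds several of these transporters at the brush border, was lower (-1.96), and so was the bile acid receptor gene Nr1h4 (-2.16). Hnf4a went from 10.04 ± 0.04 in controls to 8.03, 9.13 and 8.96 in NICD1 replicates 1 to 3 (-1.33, SE 0.24, adjusted p = 0.00235), and Hnf4g, Ppara, Esr1 and the scaffold Slc9a3r2 differed by -1.29, -1.35, -0.77 and -0.61, all called. Nfe2l2, which encodes the oxidative stress factor NRF2, rose by 1.25.

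**Figure D4:**
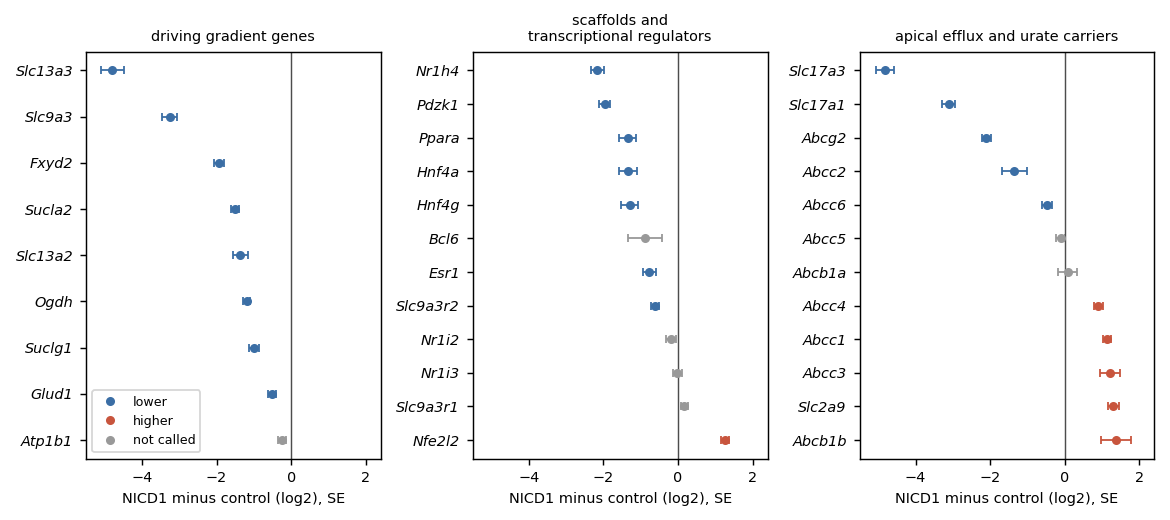
Difference of the gradient genes, the scaffolds and regulators, and the efflux and urate carriers, NICD1 minus control in log2 with standard errors from limma. Blue points were called lower, red points higher and grey points not called. The gradient genes lie left of zero, while the efflux and urate carriers reach from -4.81 (Slc17a3) to 1.37 (Abcb1b).

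Several quantities moved with the members, and their part in the falls was not tested. All 16 measured proximal tubule markers fell, among them Slc6a19 (-4.85), Slc2a2 (-3.26), Slc34a3 (-2.61) and Dpep1 (-3.74), and their mean level went from between 10.51 and 10.57 in controls to between 6.75 and 7.57 in NICD1 kidneys. In whole-kidney RNA, fewer proximal tubule cells and less transporter RNA per cell cannot be told apart. All 9 male-biased kidney genes fell, among them Ugt2b38 (-6.84), Slc7a13 (-7.30), Cyp2j13 (-4.46) and Cyp2e1 (-4.26), with mean levels of 10.94 to 11.35 in controls and 5.68 to 6.68 in NICD1 kidneys. The female-biased genes Cyp4a14 (-1.72) and Akr1c18 (-2.60) fell as well, while Slc7a12 differed by 1.60 without passing (adjusted p = 0.0737). The call of Akr1c18 was lost without control replicate 1 (-2.15, adjusted p = 0.0595) and with a trended and robust variance (adjusted p = 0.108). The Y-linked genes were well above the floor line on all 6 arrays. Mean levels in controls and NICD1 kidneys were 7.69 ± 0.07 and 7.45 ± 0.46 for Eif2s3y, 7.37 ± 0.12 and 7.52 ± 0.12 for Uty, and 6.19 ± 0.05 and 6.52 ± 0.18 for Kdm5d. Xist, transcribed from the inactive X of females, was at 2.72 to 3.11 on the 6 arrays, under the floor line. None of these 4 sex-chromosome genes was called.

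Markers of other cells were read for the OATP genes that such cells also express. Of 11 macrophage markers, 10 rose, among them Lyz2 (3.94), Itgam (2.41), C1qb (2.47) and C1qa (2.21), and Csf1r was not called (-0.05). Their mean level was 4.80 to 4.86 in controls and 6.22 to 7.07 in NICD1 kidneys. Of 9 fibroblast markers, 5 rose, among them Col1a1 (2.96), Col3a1 (2.01), Col1a2 (2.20) and Pdgfrb (0.70) (5.62 to 5.77 and 6.09 to 6.79). The 4 not called were Dcn (-0.77), Lum (-0.30), Pdgfra (-0.07) and Fap (0.03), so the fibroblast markers did not all move alike. Of 10 endothelial markers, Tek (-1.76), Kdr (-1.54), Tie1 (-0.65) and Emcn (-1.21) fell and 6 were not called (7.07 to 7.15 and 5.94 to 6.72). Of 5 podocyte markers, Podxl (-1.74), Ptpro (-0.97) and Nphs1 (-0.93) fell and Synpo rose (1.09). Of 7 hepatocyte markers, Apob (-1.49) and Ttr (-2.95) fell, Fgg rose (3.38) and 4 were not called. Ttr stood at 5.08 in control replicate 1 against 9.24 and 9.15 in the other controls, and its call was lost without any 1 array other than control replicate 1. Mean levels in controls and NICD1 kidneys were 4.20 and 3.90 for Alb, 5.24 and 5.25 for Apoa1, 3.45 and 3.54 for Ahsg, and 2.50 and 2.42 for Cyp2c29. The part of these cells in the values of Slco2a1, Slco2b1 and Slco1a4 was not tested.

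The NICD1 arrays were not equally low. Among the 20 members that fell, NICD1 replicate 1 held the lowest NICD1 value in 13 and replicate 3 the highest in 12. Over all 2978 genes called lower, replicate 1 was lowest in 41.2% and replicate 3 highest in 29.1%. Over the 1057 genes called lower by at least 1 log2, replicate 3 was highest in 35.4%. The mean of the 20 members was 5.27, 5.50 and 5.79 in NICD1 replicates 1 to 3, against 9.11, 9.30 and 9.11 in controls, and the mean of the proximal tubule markers was 6.75, 7.37 and 7.57. These members share their arrays, so the pattern is 1 observation per array and not 20. The arrays correlated at 0.991 to 0.993 within controls, 0.986 to 0.990 within NICD1 and 0.927 to 0.945 between groups, across 28187 probe sets.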

How the data were processed

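Total RNA of whole kidney from 3 control and 3 NICD1 mice was labelled with biotin and hybridised to Affymetrix arrays, and raw files were normalized in GeneSpring with RMA16, per the labels' protocols. The authors deposited 1 log2 value per probe set and array, from 1.40 to 13.67. No GeneSpring version is named in the labels. Gene symbols came from the platform annotation, in which 21640 of 34760 probe sets have 1 symbol and 1321 several, and all 40 members matched a gene of the RefSeq table of GRCm38.p6 by identifier. The comparison used limma 3.58.1 in R 4.3.3 across all 19937 genes, two-sided, with Benjamini-Hochberg adjustment, and was checked on simulated arrays. Members, roles and gene lists were chosen with earlier results of these data known. Full values were given for called members with a difference of at least 1 log2 and for the lowest adjusted p of each role; from other lists, the 4 genes with the lowest p, regulators that passed and sex-chromosome genes were named, and further genes after their values were seen. Motifs were chosen with the calls known, and some items that were listed or searched are not reported here. Alternatives were the mean over probe sets, quantile normalization, centring, a trended and robust variance, omission of the dimmest 40% of genes, a block for the replicate number, and omission of each array in turn.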

Additional observations from a re-analysis of the deposited data

How the results depend on the processing

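The 20 calls of lower members kept their direction and side of the threshold under every alternative in which they were tested. Of 465 recomputed member differences, 451 kept their side of the threshold, 0 lost a call and 14 gained a call, in 7 members. Among differences called in either fit, 0 changed sign. Some small uncalled differences did change sign, such as that of Slc22a21 (-0.02 as reported and 0.14 without NICD1 replicate 3). Of the 79 called genes of the other lists, 0 turned and 6 lost a call under some setting, namely Abcb1b, Abcc6, Akr1c18, Cd163, Postn and Ttr. The count of lower members was 20 to 24 over the alternatives. It was 24 with centring, where the lower calls over all genes also increased, from 2978 to 3710. The count of higher members was 0 without the dimmest 40% of genes, where Slc22a15 was no longer tested, and 1 to 2 when each array was left out. The median difference of the members was -2.57 without the dimmest 40% of genes, which removes 15 dim members, and -0.76 to -0.62 when each array was left out. With the replicate number as a block, 21 members were lower and 1 higher. Deviations of same-numbered arrays correlated at -0.07, -0.01 and -0.07, so the numbers gave no sign of pairing, and the block added the call of Slc22a27 (-0.54). RMA compresses dim values, so falls that end under the floor line have no firm size or order.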
